A study of Bos taurus with 16 samples.

Results

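The nuclear genes of oxidative phosphorylation are described here in rumen papillae, the leaf-shaped projections of the rumen wall that absorb the products of fermentation. The genes were taken by symbol: NDUF genes of complex I, SDHA to SDHD of complex II, UQCR genes and CYC1 of complex III, COX4 to COX8 genes of complex IV and ATP5 genes of complex V. The deposited coverage table holds 88 such symbols, and 87 of its 12011 genes have an exon region of their own. The exception is NDUFAF3, a complex I assembly factor, whose exons share a region with MIR191 and MIR425. Each gene's level is the value of its best covered exon region that belongs to 1 gene, in mean read coverage per base. A level of at least 0.5 in at least 4 libraries was reached by 85 of the 87 genes and by 9447 of the 12011 genes, and these were tested. The symbol rule also takes in 3 complex I assembly factors (NDUFAF1, NDUFAF2 and NDUFAF4) and 1 gene outside the chain, COX4NB, which the RefSeq gene table lists as an older name of EMC8, a subunit of a membrane protein complex of the endoplasmic reticulum.

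The samples came from 16 crossbred steers aged 344 ± 48 days, with 1 library per animal. The 4 groups, of 4 steers each, combine high or low gain with high or low intake. The steers received no treatment and all ate 1 ration to appetite, with 57.35% corn, 30% distillers grains and 8% alfalfa. They were assigned to a group by weight gain and dry matter intake. RNA with poly(A) tails from clipped papillae was sequenced in single reads of 50 bases. The high gain low intake group is also set against its opposite, the low gain high intake group.

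Oxidative phosphorylation takes place in the inner mitochondrial membrane. Complexes I and II pass electrons from NADH and succinate to coenzyme Q, complex III passes them on to cytochrome c, and complex IV to oxygen; the protons pumped on the way drive ATP synthesis by complex V. The subunits of complex II are encoded in the nucleus alone, while complexes I, III, IV and V each combine nuclear subunits with subunits made from the mitochondrial genome. The rumen epithelium oxidises butyrate and other fermentation acids in its mitochondria and makes ketone bodies from them.

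The libraries held an estimated 11.9 to 21.2 M reads each. Markers of the rumen epithelium were all measured, 9 of 9, and summed to 1747 to 5261 per library, with KRT6A, a keratin of stratified epithelium, at a mean of 2097. Summed smooth muscle markers (6 of 6 measured) ran from 2.1 to 37.9 at high gain and from 3.25 to 96.8 at low gain. Fibroblast markers (5 of 5 measured) ran from 131 to 327 at high gain and from 139 to 893 at low gain, where the highest value without low gain low intake replicate 3 was 308.6. Between the 5 libraries described next and the other 11, fibroblast markers ran from 146 to 893 against 131 to 309, and smooth muscle markers from 2.1 to 18.4 against 8.99 to 96.8. Markers of 1 cell type did not move together. The fibroblast marker COL1A1 ran from 0 to 4.87 in the 5 against 24.3 to 84.3, but COL1A2 from 46.2 to 271 against 34.7 to 74.0. The endothelial marker VWF was 0 in the 5 against 1.92 to 12.6, but PECAM1 ran from 3.89 to 7.61 against 2.41 to 7.83. These sums therefore do not stand for amounts of a cell type. Endothelial markers (4 of 4 measured) summed to 4.46 to 13.5 at high gain and 8.22 to 22.1 at low gain, and leukocyte markers (4 of 5 measured) to 9.29 to 34.7 at high gain and 8.22 to 29.6 at low gain. Skeletal muscle markers summed to at most 9.16 and erythrocyte markers to at most 0.77 in any library. The part of these cell types in the results below was not tested. In 5 libraries the first exons were thinly covered: high gain high intake replicate 4, high gain low intake replicates 2, 3 and 4, and low gain low intake replicate 3. Their first-exon index, the median log2 ratio of first exon to other exons over 4120 genes, was -4.35 to -3.64, against -2.75 to -1.45 in the other 11 libraries. The main comparisons are given with and without these 5 libraries. In tissue RNA of this kind, fewer cells of a type and less RNA per cell cannot be told apart.

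The nuclear genes of the chain were among the well covered genes of the papilla. In the 11 libraries with better covered first exons, the median level of the 85 tested members was 22.5 reads per base, against 4.38 for all 9447 tested genes, 12.9 for 72 mitochondrial ribosomal protein genes and 118 for 80 cytosolic ribosomal protein genes. The plot of levels by complex shows all 87 genes in all libraries. By median over its genes in the 11 libraries, complex IV stood at 62.7 (17 genes), complex II at 57.4 (4 genes), the complex I core at 40.8 (7 genes), complex III at 33.1 (9 genes), complex V at 20.9 (16 genes), the accessory subunits of complex I at 17.4 (30 genes) and the complex I assembly factors at 5.48 (3 genes). Within complex IV the means ran from 0.091 to 188, and within complex II from 40.4 to 84.4. The highest means over the 11 libraries were those of COX7C (188 ± 46.3), COX7A2 (171 ± 38.9), ATP5D (169 ± 37.7) and COX8B (138 ± 44.0; SD, n = 11 each). Each of these means lies within 1 SD of the next. That SD is the spread between animals and not that of differences within a library, which were not tested, so no order is drawn.

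**Figure D1:**
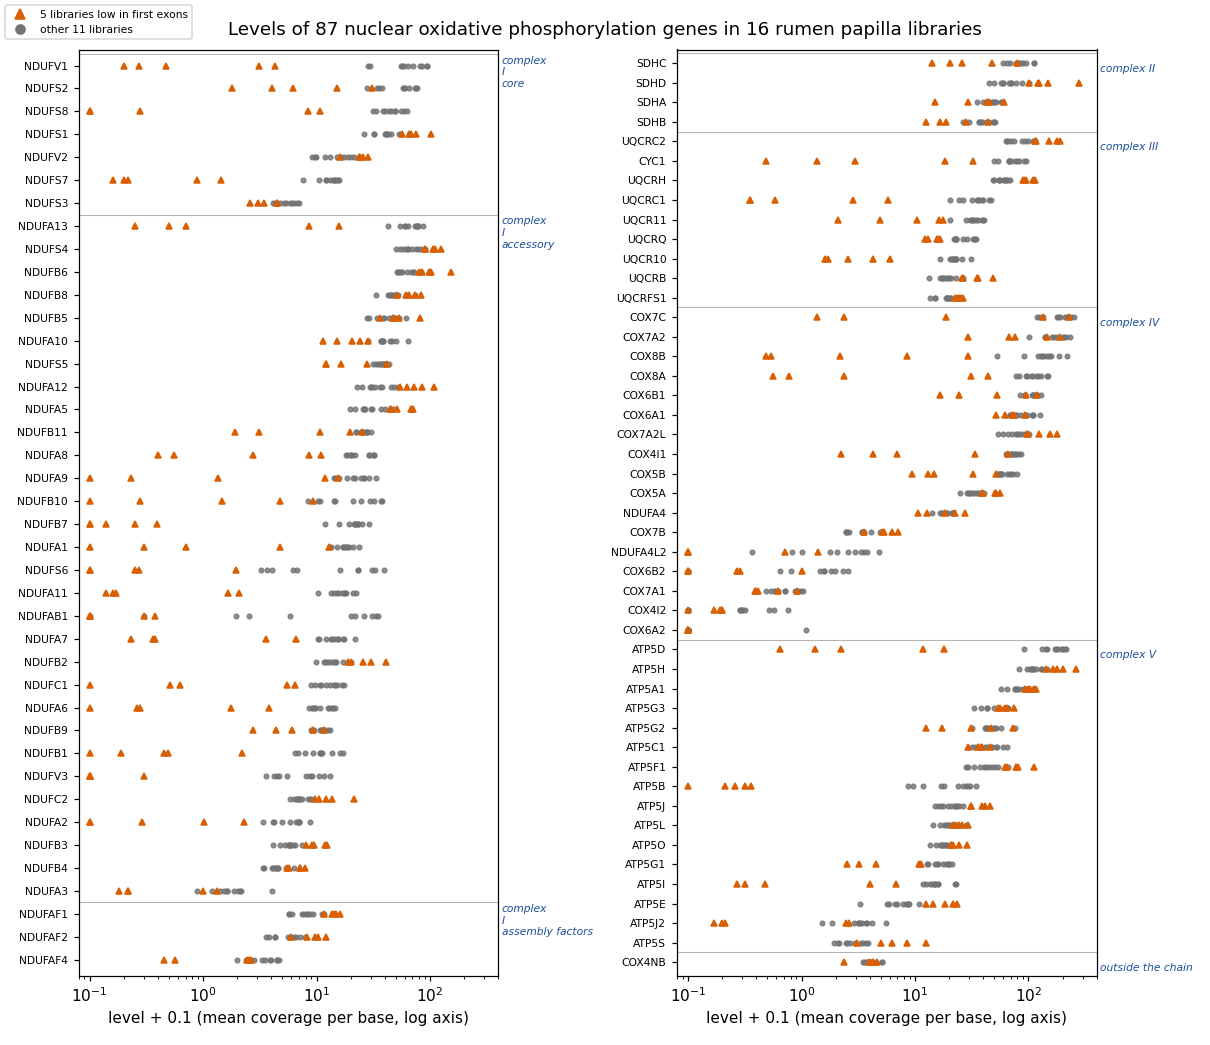
Level + 0.1 of 87 nuclear oxidative phosphorylation genes (log axis, mean read coverage per base), 1 row per gene, grouped by complex and sorted within it by the mean of 11 libraries. Triangles are the 5 libraries low in first exons and circles the other 11; in 28 genes all 5 triangles lie left of all 11 circles, and in 10 genes they lie right of them.

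In complex I, the core subunits carry the flavin and the iron-sulphur clusters of electron transfer. Over all 16 libraries the highest mean level of the core was that of NDUFS1, the large iron-sulphur subunit (chr2:94895667-94895834, UMD3.1, within exon 17), with a lowest value of 25.9, a median of 43.6 and a highest of 102. The lowest mean was that of NDUFS3, measured over exons 1 to 5 (chr15:78582055-78586350), with a lowest value of 2.51, a median of 4.54 and a highest of 6.96. This gap rests on the region read: in the 11 libraries the best region of NDUFS1 averaged 40.8 and all its regions together 7.17, while the single region of NDUFS3 averaged 5.38. Among the accessory subunits, NDUFS4 (chr20:25430720-25430894, exon 3) had the highest 16-library mean, with a median of 76.9 (49.5 to 124), and NDUFA3 (chr18:63462899-63463215, exon 4) the lowest, with a median of 1.38 (0.080 to 3.91). NDUFS4 is needed for a late step in the assembly of the enzyme. The assembly factors were low, with NDUFAF1 at a median of 8.93 (5.56 to 15.9) and NDUFAF4 at a median of 2.63 (0.35 to 4.60).

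In complex II, SDHD, a membrane anchor of succinate dehydrogenase (chr15:22732260-22733831, exon 4), had a median of 73.7 (44.9 to 276), and SDHB, the iron-sulphur subunit (chr2:136147281-136148354, exons 4 and 5), the lowest mean of the complex with a median of 37.6 (12.5 to 50.8). In complex III, the core protein UQCRC2 had a median of 104 (63.5 to 189) in a region of 117 bases in exon 14 (chr25:19885971-19886087), and the small subunit UQCR10 a median of 21.1 (1.5 to 31.1). In complex V, ATP5H, subunit d of the peripheral stalk, had a median of 122 (81.7 to 260; chr19:57024354-57024910, exons 5 and 6), and ATP5J2, subunit f, a median of 2.92 (0.070 to 5.50), read in its first exon alone. These ranks are over 16 libraries. In the 11 libraries the highest means were those of NDUFV1 in the complex I core (65.2), NDUFA13 among the accessory subunits (68.3 ± 13.1, against 68.0 ± 12.8 for NDUFS4), SDHC in complex II (84.4) and ATP5D in complex V (169), and the lowest those of UQCRFS1 in complex III (18.2) and ATP5S in complex V (2.73). The rank of SDHC rests on the region read. Over all its regions SDHC averaged 9.14 in the 11 libraries, against 57.0 for SDHD, 18.6 for SDHA and 15.8 for SDHB.

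The isoform pairs of complex IV gave a clear order in most cases. COX4I1, the widely expressed form of the subunit 4, had a median of 70.5 (2.14 to 85.0), and COX4I2, the form best known from lung, a median of 0.145 (0 to 0.66), too low for the test. COX6A1 had a median of 82.5 (52.0 to 126). COX6A2, the heart and skeletal muscle form of the same subunit, was listed at 0 in 15 libraries and at 1.00 in low gain high intake replicate 1, which is what a single read is worth there. COX6B1 had a median of 109 (16.6 to 130), against 0.80 (0 to 2.49) for COX6B2, a form known from testis. COX7A2 had a median of 153 (29.4 to 230), against 0.52 (0.29 to 0.93) for COX7A1, the muscle form. Exons 2 to 4 of COX7A1 share a region with CAPNS1 and were not used, so its level rests on its first exon. NDUFA4, which is now counted with complex IV, had a median of 18.9 (10.6 to 27.5), and NDUFA4L2, its hypoxia-inducible paralog, 1.5 (0 to 4.73). In each of these 5 pairs the form named first was the higher one in all 16 libraries. The size of the gap depended on the region read in some pairs. Over all regions of a gene in the 11 libraries, NDUFA4 averaged 3.70 against 2.00 for NDUFA4L2, and COX7A2 5.22 against 0.63 for COX7A1. The same means were 61.9 against 0.20 for COX4I1 and COX4I2, 93.0 against 0.078 for COX6A1 and COX6A2, and 95.2 against 0.74 for COX6B1 and COX6B2.

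COX8A and COX8B, which in other mammals are the widely expressed and the heart and muscle form, were both well covered here. COX8A had a median of 96.2 (0.46 to 149) and COX8B (chr11:107244090-107244391, exon 1) a median of 125 (0.39 to 220). Over the 11 libraries the mean was 112 ± 23.4 for COX8A and 138 ± 44.0 for COX8B (SD, n = 11), and COX8B was the higher of the pair in 8 of these 11 and in 0 of the 5. The file places COX8A on 2 chromosomes: the best region is 118 bases on chromosome 20, and a longer one of 736 bases on chromosome 29 had a mean of 91.6 in the 11 libraries. Reads could fall to either copy, so the value of COX8A is uncertain, and so is that of COX6B1, which the file lists with exon 1 alone, on chromosome 5 (chr5:94363584-94364144). The 3 genes of subunit c of complex V, which encode the same mature protein, ranked as ATP5G3 with a median of 58.7 (33.0 to 75.0), ATP5G2 with 44.0 (12.4 to 75.3) and ATP5G1 with 15.2 (2.44 to 20.9). ATP5G3 and ATP5G2 overlapped over the libraries, and ATP5G1 stayed below the lowest ATP5G3 value in every library.

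A gene's level depended on which of its regions was read. Of the 87 genes, 17 had 1 region of their own and 70 had more, and in these 70 the best region stood at a median of 2.04 times the length-weighted mean of all regions. In 11 genes it exceeded 5 times that mean, with the largest ratios of 32.8 in COX7A2, 20.4 in COX7C, 12.98 in UQCRC2 and 12.2 in NDUFA12. In COX7C, for example, the 120 bases in exon 1 (chr7:88648381-88648500) averaged 188 in the 11 libraries, and the other 4 regions at most 3.40. A first exon was part of the region in 32 of the 87 genes and was the whole of it in 20. In 15 genes a further region was shared with another gene and left out. That matters most for ATP5B, the catalytic beta subunit of ATP synthase: its own first exon (chr5:57119873-57120404) averaged 14.8 over 16 libraries, and exons 2 to 10, in a region shared with MIR677, averaged 98.4.

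In the 5 libraries low in first exons, some genes of the chain lay lower and some higher than in the other 11, and most overlapped them. The difference of mean log2 levels, 5 libraries minus 11, had a median of -0.95 over the 85 tested members, against 0.01 over all 9447 tested genes, and it was below -1 in 41 of the 85 members (48.2%), against 32.8% of all tested genes. The median was -0.50 over 80 cytosolic ribosomal protein genes (40% below -1) and -0.15 over 72 mitochondrial ones (33.3% below -1). In all 5 libraries, 28 members lay below all 11 other libraries and 10 above them, as did 19.5% and 3.15% of all tested genes. The remaining 47 members overlapped the 11. The 28 and the 10 are called the lower and the higher set below. These counts are a description of libraries that were set apart by coverage of first exons, and they carry no test. The share depended on the region: 24 of the 32 members read with a first exon were below -1 (75%, against 55.1% of all tested genes with a first exon in the region), and 17 of the 53 read without one (32.1%, against 30.8%).

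The lower set included NDUFS7, NDUFS8 and NDUFV1 of the complex I core. NDUFV1, the flavin-carrying subunit (chr29:46113827-46114247, exons 9 and 10), stood at 0.37 in high gain high intake replicate 4, at 0.17, 2.98 and 4.19 in high gain low intake replicates 2, 3 and 4, and at 0.10 in low gain low intake replicate 3, against 28.4 to 93.9 in the other 11. No region of NDUFV1 escaped this, since the means of its 5 regions were 0.028 to 2.48 in the 5 libraries and 10.02 to 65.2 in the 11. NDUFS8, another iron-sulphur subunit (chr29:46208610-46208823, exon 7), was listed at 0 in high gain low intake replicate 2 and in low gain low intake replicate 3, with 0.18, 8.29 and 10.7 in the remaining 3 of the 5 and 31.2 to 62.1 in the 11. ATP5D, the delta subunit of the ATP synthase (chr7:45303702-45304563, exons 3 and 4), had 0.55 to 17.7 in the 5 libraries and 91.9 to 216 in the 11. CYC1, cytochrome c1 of complex III, read over all its 7 exons (chr14:1930062-1932615), had 0.39, 1.27, 2.89, 18.4 and 32.6 in the 5 libraries and 50.0 to 94.1 in the 11. The regions of NDUFV1, NDUFS8 and ATP5D hold no first exon.

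The higher set comprised ATP5E, ATP5J, NDUFA12, NDUFB3, NDUFC2, NDUFS1, SDHD, UQCRC2, UQCRFS1 and UQCRH. SDHD stood at 149 in high gain high intake replicate 4, at 121, 102 and 124 in high gain low intake replicates 2, 3 and 4, and at 276 in low gain low intake replicate 3, against 44.9 to 101 in the other 11. ATP5J, coupling factor 6 of the ATP synthase (chr1:10074726-10077006, exons 3 and 4), had 30.9 to 45.6 in the 5 libraries and 14.8 to 26.3 in the 11. Subunits of the same enzyme thus lay on opposite sides: NDUFS1 above and NDUFV1 and NDUFS8 below in complex I, ATP5J above and ATP5D below in complex V, UQCRC2 above and UQCRC1 below in complex III. In the 5 libraries 3 to 12 of the 87 members were listed at 0 and 10 to 33 stood under 1, against 1 to 4 and 3 to 5 members in the other 11. Zeros were also more frequent among all 9447 tested genes, with 276 to 1211 genes at 0 in the 5 libraries, against 89 to 175 in the other 11. The counts at 0 are therefore not particular to the members. Within the 11, the median SD on the log2 scale was 0.31 for members, against 0.40 for all tested genes. It was 0.32 for mitochondrial and 0.26 for cytosolic ribosomal protein genes. Members also had a higher median level, 22.5 against 4.38 for all tested genes, and the part of level in this spread was not tested.

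**Figure D2:**
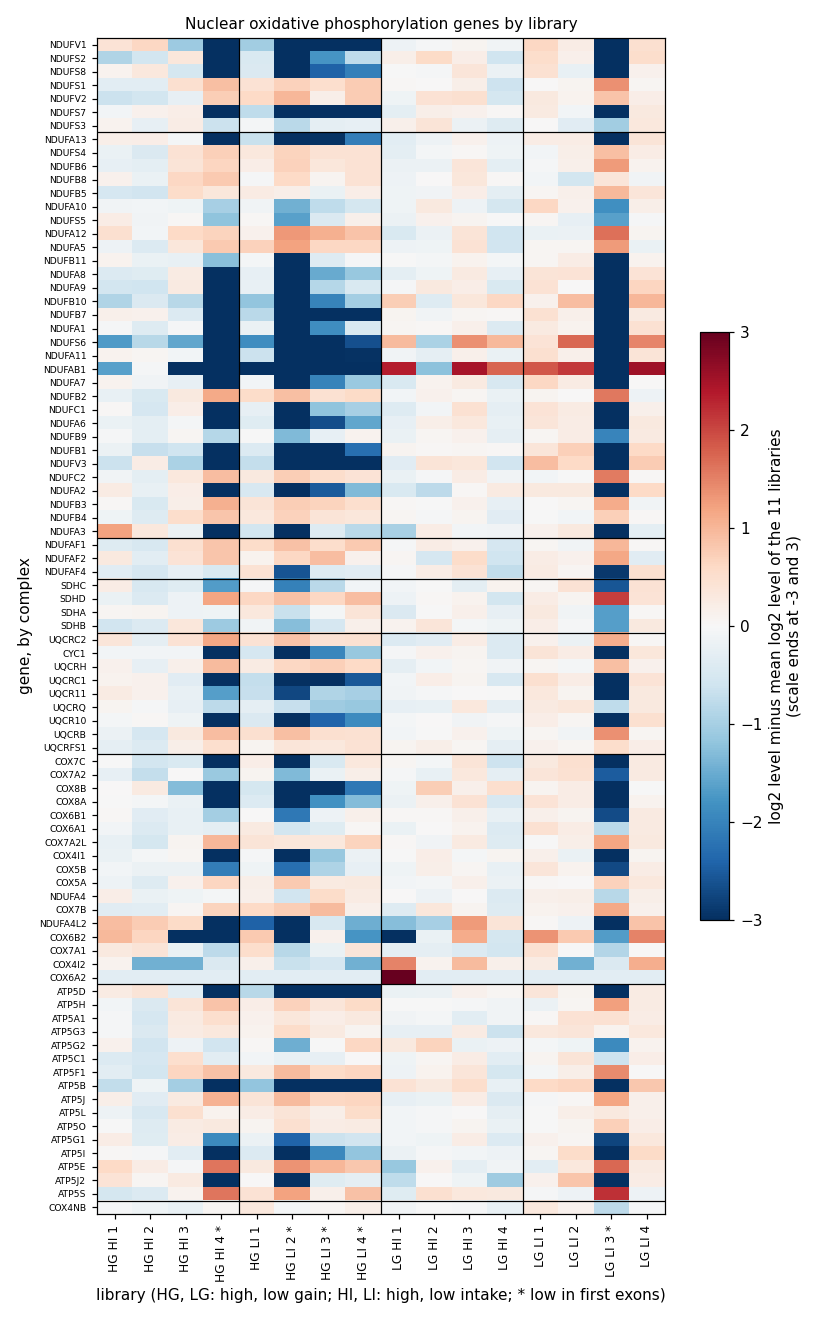
Log2 level of 87 genes (rows, by complex) in 16 libraries (columns, by group), minus the gene's mean log2 level in the 11 libraries with better covered first exons; red is higher and blue lower, and the colour scale ends at -3 and 3. In the 5 columns marked with an asterisk, 28 genes lie below all other libraries, by mean log2 differences from -0.89 (UQCRQ) to -6.95 (NDUFB7), and genes such as SDHD and UQCRC2 are red. NDUFAB1 is the row with the strongest contrast between high gain and low gain columns.

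Gain was compared as the mean of the high gain groups minus the mean of the low gain groups, with limma on log2(level + 0.1). None of the 85 members passed an adjusted p of 0.05, and neither did any other gene (0.0% of 9447). At an unadjusted p under 0.05, no member was higher at high gain and 5 were lower, against 0.974% of all tested genes higher and 4.32% lower, so the 5 of 85 are near the share of all genes. The median log2 difference of the members was -0.21, against -0.04 for all tested genes, and 34 of 85 members had a positive difference. High and low gain did not separate completely for any member (0.0212% of all tested genes separated upward and 0.0106% downward). High gain holds 4 of the 5 libraries low in first exons. All 5 of the lower members were read with a first exon; the median difference was -0.91 over the 32 members with a first exon in the region and 0.11 over the 53 without. By role, the median was -0.94 in the complex I core, -0.51 in its accessory subunits, -0.43 in complex III, -0.21 in complex IV, -0.08 in complex II and 0.07 in complex V. Without the 5 libraries the medians were -0.31 in the complex I core, -0.18 in its accessory subunits, -0.27 in complex III, -0.12 in complex IV, -0.05 in complex II and -0.01 in complex V, and -0.27 over the members with a first exon in the region.

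The largest difference by gain was in NDUFAB1, the mitochondrial acyl carrier protein, which is also a subunit of complex I and serves fatty acid and lipoic acid synthesis. Its exon 1 (chr25:21509011-21509207) stood at 1.85, 5.73, 0 and 0 in high gain high intake steers and at 0.20, 0.28, 0 and 0 in high gain low intake steers. At low gain it stood at 30.7, 2.45, 33.3 and 19.9 with high intake and at 21.8, 25.8, 0.20 and 34.8 with low intake. All 8 high gain libraries lay at or below 5.73, and 6 of the 8 low gain libraries at or above 19.9, the exceptions being low gain high intake replicate 2 and low gain low intake replicate 3. The log2 difference was -5.14 ± 1.13 (SE; limma adjusted p = 0.715). Without low gain low intake replicate 3 it was -5.95 (adjusted p = 0.0240 by limma), the only member called there, where 0.607% of all genes passed. The other regions of NDUFAB1 showed smaller gaps than exon 1. In the 11 libraries, exons 3 to 5 averaged 5.31 ± 0.86 in high gain steers (SD, n = 4), against 5.17 ± 0.50 in low gain steers (n = 7). Exon 2 averaged 3.75 ± 0.18 in high gain steers, against 4.93 ± 0.94 in low gain steers. With the best region that holds no first exon, the difference of NDUFAB1 was 0.19 (adjusted p = 0.860 by limma).

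NDUFS6, an accessory subunit that binds zinc, was the next member by p. Its exon 1 (chr20:70991239-70991452) had 3.58, 6.58, 3.95 and 0 in high gain high intake steers, 3.17, 0, 0.15 and 1.83 in high gain low intake steers, 22.9, 6.05, 30.6 and 23.3 in low gain high intake steers and 15.8, 39.6, 0.17 and 32.9 in low gain low intake steers. The 2 low gain libraries that overlap the high gain ones are again low gain high intake replicate 2 and low gain low intake replicate 3. The log2 difference was -3.56 ± 1.18 (SE; limma adjusted p = 0.847). Here the later exons lay in the same direction, with exons 3 and 4 at 7.87 ± 3.12 in high gain steers (n = 4), against 16.8 ± 4.34 in low gain steers (n = 7), in the 11 libraries. ATP5B, read in exon 1, had 11.6, 17.8, 9.58 and 0.22 in high gain high intake steers, 8.51, 0.16, 0.11 and 0.26 in high gain low intake steers, 26.2, 23.9, 28.2 and 16.7 in low gain high intake steers and 29.3, 30.3, 0 and 34.4 in low gain low intake steers. Its log2 difference was -2.87 ± 1.28 (SE; limma adjusted p = 0.847). The region of its later exons, shared with MIR677, averaged 91.8 ± 20.8 in high gain steers, against 100.5 ± 14.9 in low gain steers, in the 11 libraries.

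**Figure D3:**
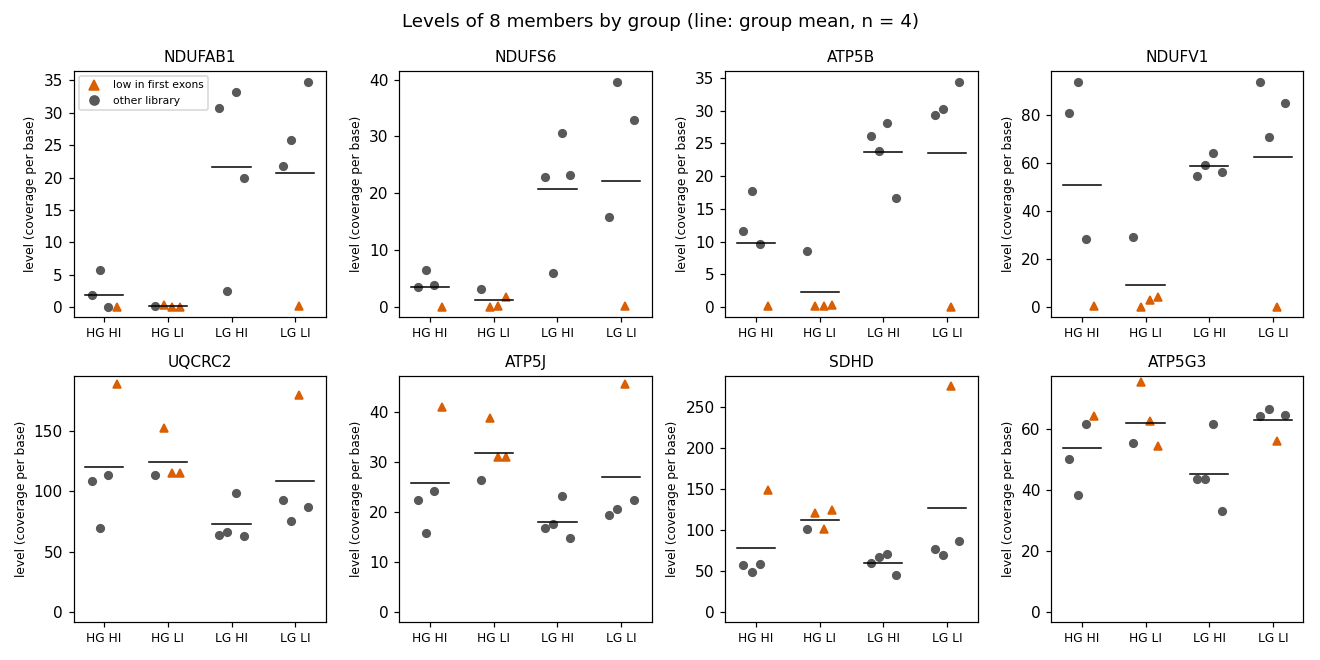
Levels of 8 members (mean read coverage per base, linear axes) in the 4 groups, HG and LG for high and low gain, HI and LI for high and low intake; lines are group means of 4 steers, triangles the 5 libraries low in first exons. NDUFAB1, NDUFS6 and ATP5B lie lower at high gain in the circles too, while NDUFV1 is near 0 in the triangles alone and UQCRC2, ATP5J and SDHD are highest in them.

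UQCRQ, a small subunit of complex III (chr7:46069219-46071107, exons 1 and 2), had 12.1 to 28.6 at high gain with a median of 19.4 and 15.8 to 34.2 at low gain with a median of 27.6. The groups overlapped, and the log2 difference was -0.48 ± 0.21 (SE; limma adjusted p = 0.847). The members with the smallest p among those higher at high gain were UQCRC2 (median 114 at high gain, 81.2 at low gain; log2 difference 0.46 ± 0.22 SE), ATP5E, the epsilon subunit of the ATP synthase (11.6 and 7.16; 0.66 ± 0.32), NDUFA12, an accessory subunit near the peripheral arm of complex I (53.1 and 30.4; 0.57 ± 0.28), and NDUFB8, an accessory subunit of the membrane arm (59.1 and 47.2; 0.32 ± 0.18). None of these passed the test, with a limma adjusted p of 0.847 each. Of the high gain libraries, 7 of 8 lay above the low gain median for UQCRC2, ATP5E and NDUFB8 and 8 of 8 for NDUFA12. In the 11 libraries the differences were 0.42 for UQCRC2, 0.41 for ATP5E, 0.39 for NDUFA12 and 0.17 for NDUFB8. With the first-exon index as a model term they were -0.0038, -0.0615, -0.0059 and 0.0056 in the same genes.

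Without the 5 libraries low in first exons, 4 high gain and 7 low gain libraries remain, with a single one at high gain and low intake, which is assumed to vary like the other groups. In that comparison 3 members were lower at high gain by limma, where 61 of 9215 genes (0.662%) passed: ATP5B (log2 difference -1.37 ± 0.22 SE, adjusted p = 0.0280), NDUFB10 (-1.46 ± 0.27, adjusted p = 0.0440) and NDUFS6 (-2.51 ± 0.47, adjusted p = 0.0444). All 3 were read in exon 1. NDUFB10, an accessory subunit of the membrane arm, stood in its exon 1 (chr25:1517648-1517942) at 10.2, 14.03, 10.6 and 8.38 in the 4 high gain libraries and at 14.5 to 38.0 in the 7 low gain ones. Its exons 2 to 4, in a region shared with the ribosomal protein gene RPS2, averaged 18.1 ± 1.70 in high gain steers, against 20.1 ± 2.24 in low gain steers. NDUFAB1 had a log2 difference of -5.18 ± 1.11 in these libraries, with an adjusted p of 0.0711 by limma. The first-exon index moved with gain in the 11 libraries as well. Its mean was -2.39 ± 0.31 in high gain steers (n = 4), against -1.70 ± 0.21 in low gain steers (n = 7). Gain and coverage of first exons therefore cannot be told apart in levels read in exon 1. Values of later exons are given above for NDUFAB1, NDUFS6, ATP5B and NDUFB10. At an unadjusted p under 0.05, 19 members were lower and none higher, against 10.3% and 2.13% of all genes.

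With the first-exon index of each library as a term in the model, 20 members passed by limma, 17 higher and 3 lower at high gain, and 1306 of 9447 genes passed (13.8%). The 17 included NDUFV1, NDUFS7 and NDUFS8 of the complex I core (log2 differences 1.68, 1.26 and 2.38), CYC1 (1.95), COX4I1 (1.51) and ATP5D (1.85), each with a lower mean log2 level in the 5 libraries than in the 11; COX4I1, at 65.3 in high gain low intake replicate 4, overlapped the 11. The 3 lower ones were ATP5S (-0.83), a coupling factor, SDHD (-0.54) and NDUFAB1 (-2.79). None of the 20 passed in all 16 libraries without that term, and the index is itself lower at high gain (-3.18 ± 0.90, against -2.03 ± 0.96 at low gain; SD, n = 8 each), so gain and the index overlap in this model.

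Intake was compared in the same way, as high minus low intake. None of the 85 members and none of the 9447 genes passed (0.0%). At an unadjusted p under 0.05, no member was higher and 5 were lower at high intake, against 2.47% of all tested genes higher and 5.81% lower, so the 5 of 85 are near the share of all genes. The median log2 difference of the members was 0.23, against -0.01 for all tested genes; without the 5 libraries, of which low intake holds 4, it was -0.17, against -0.13 for all genes. There, 1 member was higher and 9 were lower at an unadjusted p under 0.05, against 2.47% and 7.28% of all genes, and none passed after adjustment (0.0%). No member separated the intakes completely, as 0.0212% of all tested genes did upward and 0.0529% downward. The direction again followed the region: the median was 0.98 for members with a first exon in the region and -0.28 for those without. Without the 5 libraries these medians were -0.11 with a first exon and -0.20 without one, so the split was not seen there.

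SDHD had the smallest p of the members for intake. At high intake it stood at 57.2, 49.4, 59.1 and 149 in high gain steers and at 59.6, 67.1, 70.7 and 44.9 in low gain steers. At low intake it stood at 101, 121, 102 and 124 in high gain steers and at 76.8, 69.5, 276 and 87.3 in low gain steers. All 8 low intake libraries lay at or above 69.5, and 6 of the 8 high intake libraries below that. The log2 difference was -0.75 ± 0.29 (SE; limma adjusted p = 0.528), and -0.63 ± 0.16 (limma adjusted p = 0.336) in the 11 libraries. In its exons 2 and 3, which hold no first exon either, the 5 libraries averaged 33.8 in exon 2 and 49.96 in exon 3, against 45.6 and 45.9 in the 11.

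NDUFV2, a core subunit with an iron-sulphur cluster (chr24:41861749-41861824, exon 4), had 9.08 to 23.5 at high intake with a median of 12.4 and 15.1 to 28.1 at low intake with a median of 19.4 (log2 difference -0.55 ± 0.23 SE). COX7B, a small complex IV subunit, had medians of 2.90 at high and 4.15 at low intake (-0.53 ± 0.23), and ATP5G3 had medians of 46.7 and 63.2 (-0.36 ± 0.16). Each of these groups overlapped, and the limma adjusted p was 0.528 for each. Among members with higher fitted values at high intake, the smallest p values belonged to ATP5B (medians 17.3 at high and 4.39 at low intake), NDUFB7 (21.4 and 6.06), COX8B and UQCR11. NDUFB7 is an accessory subunit of the membrane arm of complex I, and UQCR11 a small subunit of complex III. In the 11 libraries the difference of ATP5B was 0.07 and that of NDUFB7 0.24.

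**Figure D4:**
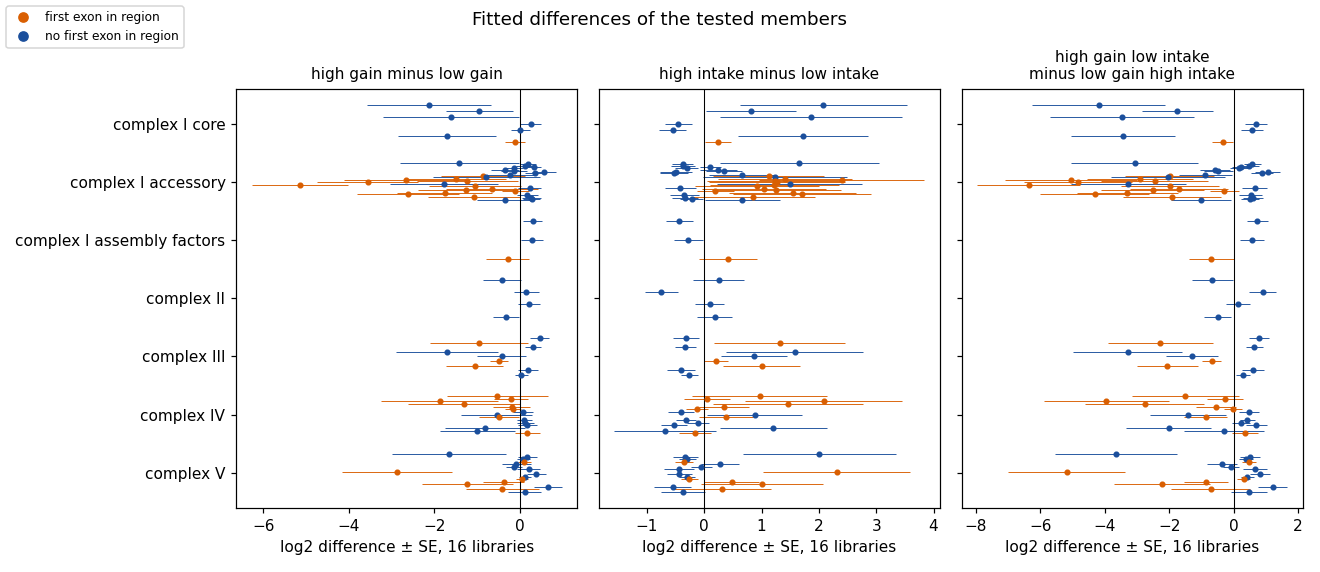
Fitted log2 differences ± SE of the tested members by complex (rows; COX4NB, outside the chain, is not drawn) for gain, intake, and high gain low intake minus low gain high intake, over 16 libraries. Orange points are members read with a first exon in the region and blue ones those without; the orange points lie mostly left of 0 for gain (median -0.91) and right of 0 for intake (median 0.98), with wide errors.

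High gain with low intake was set against low gain with high intake, 4 steers each. None of the 85 members and none of the 9447 genes passed (0.0%). At an unadjusted p under 0.05, 10 members were higher and 7 lower, against 4.11% of all tested genes higher and 9.36% lower. All 10 higher members were read without a first exon and all 7 lower ones with one. The groups did not overlap in 19 members that were higher and 21 that were lower, and the same held for 12.1% and 16.9% of all tested genes. High gain with low intake holds 3 of the 5 libraries low in first exons and the other group none, so the trait and the coverage of first exons cannot be told apart in this comparison. The median log2 difference of members was -0.48, against 0.01 for all tested genes, and 0.03 against 0.10 without the 5 libraries, which leaves 1 steer with high gain and low intake. In those libraries 2 members were higher and 12 lower at an unadjusted p under 0.05, against 3.97% and 7.08% of all genes; no member passed after adjustment, and 0.0217% of all genes did.

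The higher members with the smallest p values were ATP5E, NDUFA12, ATP5J and NDUFA5. ATP5E (chr13:57868209-57869912, exons 2 and 3) had 8.66, 18.2, 14.2 and 12.5 in high gain low intake steers and 3.16, 7.76, 5.80 and 6.56 in low gain high intake steers, with no overlap and a log2 difference of 1.21 ± 0.45 (SE; limma adjusted p = 0.369). The 1 high gain low intake library outside the 5 gave the lowest value of its group. NDUFA5, an accessory subunit of the peripheral arm, had 47.3, 67.4, 44.6 and 45.0 in high gain low intake steers, against 26.3, 26.7, 39.6 and 19.7 in low gain high intake steers (0.88 ± 0.35). In this gene the library outside the 5, at 47.3, was not the lowest of its group. ATP5J had 26.3, 38.8, 30.9 and 31.1 in high gain low intake steers, against 16.8, 17.6, 23.3 and 14.8 in low gain high intake steers (0.82 ± 0.31). Without the 5 libraries the differences were 0.64 for ATP5E, 0.80 for NDUFA5, 0.56 for ATP5J and 0.35 for NDUFA12, and none passed.

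The lower members with the smallest p values were NDUFAB1 (log2 difference -6.36 ± 1.60 SE), NDUFS6 (-4.82 ± 1.67), ATP5B (-5.19 ± 1.82) and NDUFV3 (-4.32 ± 1.70), each with a limma adjusted p of 0.369. NDUFV3, a small subunit beside the flavin site, had 4.11, 0, 0 and 0.20 in its exon 1 in high gain low intake steers, against 5.36, 8.92, 8.73 and 4.53 in low gain high intake steers. Its exons 2 and 3 averaged 3.01 in the 5 libraries and 4.29 in the 11, compared with 0.040 in the 5 libraries and 7.51 in the 11 for exon 1. In the 11 libraries the differences were -5.66 for NDUFAB1, -2.45 for NDUFS6, -1.44 for ATP5B and -0.67 for NDUFV3, and none passed.

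The interaction of gain and intake called no member and no gene (0.0%). No member reached an unadjusted p under 0.05, against 0.148% of all tested genes upward and 0.37% downward, and the median over the members was 0.00. The smallest p was that of UQCRQ, with 23.3 ± 5.64 in high gain high intake, 15.9 ± 4.59 in high gain low intake, 25.4 ± 5.46 in low gain high intake and 28.8 ± 8.71 in low gain low intake steers (SD, n = 4 each). Its interaction was 0.69 ± 0.42 (SE; limma adjusted p = 1.00). The proton channel gene ATP5G2 had 39.1 ± 9.58, 46.0 ± 22.6, 54.1 ± 16.0 and 37.8 ± 17.3 in the same 4 groups, with an interaction of -0.75 ± 0.67. Without the 5 libraries 14 members were higher and none lower at an unadjusted p under 0.05, against 6.0% and 3.73% of all genes, and none passed after adjustment.

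The mitochondrial genome is present in the file as 1 unannotated region, so its own subunits of the chain could not be read one by one. Its share of all covered bases was 8.75% to 28.0%, with 18.3 ± 6.61% in high gain steers and 12.6 ± 4.39% in low gain steers (SD, n = 8 each). In the 11 libraries the shares were 16.1 ± 6.52% at high gain (n = 4) and 11.9 ± 4.25% at low gain (n = 7). The summed level of the 87 nuclear members was 2842 ± 414 (2169 to 3253) in high gain steers, against 3396 ± 478 (2652 to 3916) in low gain steers. After division by the share of bases outside the mitochondrial genome, the sums were 3488 ± 477 (2714 to 3984) in high gain steers and 3874 ± 398 (3213 to 4371) in low gain steers. High and low gain overlapped before and after the division. In the 11 libraries the sums were 3125 ± 195 and 3502 ± 402 before the division, and 3731 ± 103 and 3968 ± 319 after it. The 5 libraries low in first exons had sums of 2169 to 3090, with mitochondrial shares of 11.6% to 28.0%, against 2835 to 3916 and 8.75% to 25.0% in the other 11. Among these 11, high gain high intake replicate 2 (mitochondrial share 25.0%) held the lowest value for 25 of the 85 members and low gain high intake replicate 4 (20.9%) for 23; after the division the counts were 9 and 16. All libraries were brought to nearly the same total, so a larger mitochondrial share leaves less of that total to nuclear genes. With levels scaled to the bases outside the mitochondrial genome, 6 members were higher and 3 lower by gain at an unadjusted p under 0.05 (2.97% and 3.36% of all genes), none higher and 8 lower by intake (2.45% and 7.17% of all genes), and 20 higher and 5 lower in high gain low intake against low gain high intake steers (10.4% and 7.53% of all genes). None passed after adjustment.

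**Figure D5:**
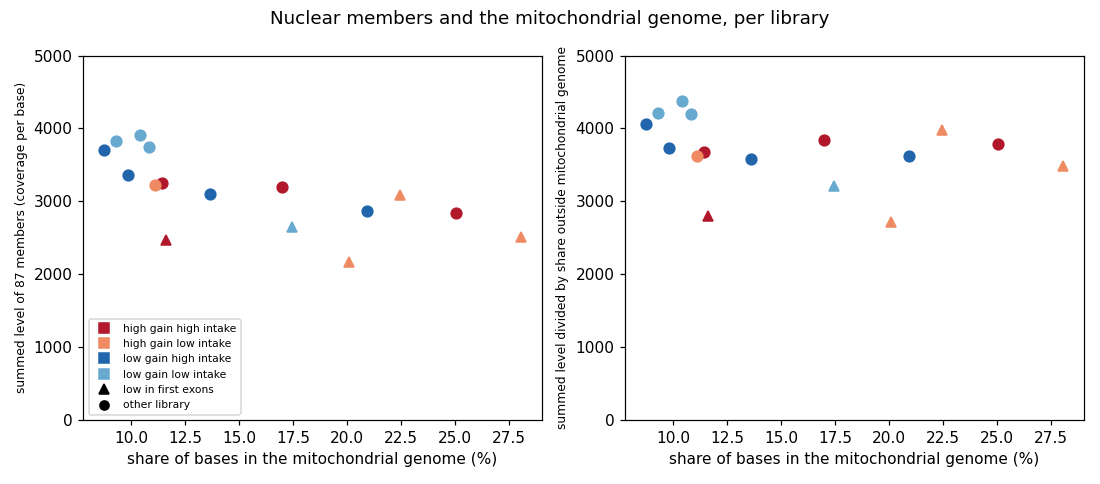
Summed level of the 87 nuclear members (vertical axis, mean read coverage per base) against the share of bases in the mitochondrial genome (horizontal axis, %), 1 point per library, coloured by group; the right panel divides the sum by the share outside the mitochondrial genome. Sums run from 2169 to 3916 on the left and from 2714 to 4371 on the right, and the triangles, libraries low in first exons, include the lowest values in both panels.

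Other mitochondrial genes were tested in the same way. Of 20 tested assembly factors outside the symbol rule, 7 genes of cytochrome c and regulators of the chain, 19 of coenzyme Q synthesis and electron entry, 13 of the tricarboxylic acid cycle, 13 of mitochondrial transcription and biogenesis, 10 of antioxidant defence, 16 of the outer membrane and mitochondrial dynamics and 72 mitochondrial ribosomal proteins, none passed for gain or for intake in the 16 libraries. Without the 5 libraries, 1 assembly factor, 1 gene of the cytochrome c list and 4 mitochondrial ribosomal protein genes were lower at high gain by limma, where 0.662% of all genes passed, and none passed for intake. With the index as a term, where 13.8% of all genes passed for gain, 18 mitochondrial ribosomal protein genes were higher and 1 lower at high gain, 4 assembly factors were higher and 1 lower, and 4 tricarboxylic acid cycle genes were higher and 1 lower. In the same model the cytochrome c list had 2 higher, coenzyme Q synthesis 1 higher and 1 lower, transcription and biogenesis 1 higher and 1 lower, antioxidant defence 2 higher and 2 lower, and the outer membrane list 2 higher. In the 16 libraries, their median log2 differences by gain lay between -0.08 and 0.13 and by intake between -0.30 and -0.04. For gain, the smallest p in each list but the ribosomal proteins belonged to COX11, a copper chaperone of complex IV (log2 difference -1.89), CHCHD2 (0.36), COQ7, an enzyme of coenzyme Q synthesis (-0.81), MDH2, malate dehydrogenase (-2.72), ESRRA (-1.32), TXNRD2 (-2.32) and VDAC2 (-3.30), each with an adjusted p of 0.847 by limma. COX11 had a median of 0.525 (0.34 to 1.51) at high gain and of 3.48 (0.22 to 4.43) at low gain, read in a region with a first exon. MDH2 had a median of 23.7 (0.14 to 72.1) at high gain and of 94.9 (0.46 to 131) at low gain. Both genes overlapped between high and low gain.

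For intake, the smallest p in the same lists belonged to NUBPL, an iron-sulphur assembly factor of complex I (-0.82), CYCS, cytochrome c itself (-0.56), ETFA, which hands on electrons from fatty acid oxidation (-0.56), DLD, the shared dehydrogenase of 2-oxoacid complexes (-0.57), GABPA, a transcription factor of nuclear genes for mitochondria (-0.62), PRDX3 (-0.68) and VDAC3 (-0.76), each with an adjusted p of 0.528 by limma. All 7 had negative estimates, and all were read without a first exon, as were 8677 of all 9447 tested genes. At an unadjusted limma p under 0.05 for intake, 5.81% of all tested genes were lower and 2.47% higher. CYCS had a median of 8.56 (7.41 to 18.3) at high intake and 13.7 (9.83 to 22.3) at low intake, and ETFA a median of 96.7 (56.2 to 158) at high intake and 140.1 (109 to 176) at low intake, so both overlapped between intakes.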

How the data were processed

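Rumen papillae RNA of 16 steers was measured, 1 library each. Per the labels' protocols, poly(A) RNA was selected and sequenced as 1 read of 50 bases per fragment. The submitters' processing notes name TopHat2 2.08b and the build UMD3.1. No source used here states aligner settings, annotation release, strand setting or coverage tool. The table has 2351373 regions and 16 library columns, tied to steers through the number in brackets in the title; 0 value columns belong to other samples. The values deposited by the authors are a coverage signal, reads per base averaged over a region and scaled by a factor for each library. This unit was read from the values, since the sum of value times region length differs little between libraries (591.1 to 595.9 Mb). A single read in the shortest regions is worth 0.56 to 1.00, so low levels in short regions rest on few reads; without counts no interval was computed. The authors' derived columns were not used.

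Of 113576 exon regions, 523 spanning several genes were left out. Genes reaching 0.5 in 4 or more libraries were fitted with limma 3.58.1 in R 4.3.3 (trend and robust options) on log2(level + 0.1), as 4 group means over 16 libraries, with two-sided tests and Benjamini-Hochberg adjustment over all 9447 tested genes at 0.05. Fold changes on this scale understate changes of low genes. SE is the model's error and SD the spread between animals. The first-exon index uses genes with at least 6 exons whose other exons average at least 2. The fitting code was tested on simulated data. Python 3.11.15, pandas 2.3.3 and numpy 2.4.6 made the tables.

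The members, lists and markers were chosen with earlier results of these data known. Named members are, per role, those with the highest and lowest mean level; per comparison, the 4 per direction with the smallest unadjusted p; members past the adjusted threshold; isoform pairs; and untested members. In each other list the gene with the smallest p for gain and for intake is named. ATP5D, NDUFV1, NDUFS8, CYC1, UQCRC1, the extremes in the 11 libraries, the sets that lie outside the range of the 11 libraries, and the examples of uneven regions were chosen after their values were seen. The alternatives were another pseudocount, no filter, plain limma, 3 scalings, 2 other ways of reading a gene, leaving out the 5 libraries or each library in turn, and the index as a model term.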

Additional observations from a re-analysis of the deposited data

Results flagged for a closer look

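In groups of 4, the highest or lowest steer was set against the gap to its nearest neighbour, in 192 groups (44 named members and 4 measures per library). The gap passed Dixon's limit in 30, and chance alone passes about 1 in 20 groups. Libraries low in first exons gave 23 of the 30.

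Low gain low intake replicate 3 gave 18 of them. It was low, against the other 3 steers of its group, in ATP5B (0, against 29.3 to 34.4), COX6B1 (16.6, against 114 to 130), COX7A2 (29.4, against 200.3 to 230.01), COX7C (1.27, against 219 to 254), COX8B (0.39, against 129 to 153), NDUFA4 (10.6, against 21.1 to 21.5), UQCR11 (2.01, against 34.5 to 40.3) and UQCRQ (15.8, against 32.3 to 34.2). It was high in ATP5J (45.6, against 19.4 to 22.3), COX7B (6.94, against 3.35 to 3.43), NDUFA12 (108, against 29.7 to 36.5), NDUFA5 (71.0, against 25.5 to 30.6), NDUFAF1 (15.9, against 7.32 to 8.19), NDUFS1 (102, against 40.5 to 42.4), SDHD (276, against 69.5 to 87.3) and UQCRC2 (180, against 75.2 to 92.6). The summed level of its members was 2652, against 3748 to 3916, and its first-exon index -4.35, against -1.71 to -1.45.

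High gain high intake replicate 4 stood at 2.28 for COX8A (95.9 to 109 in the other 3 steers), 2.45 for UQCR10 (20.2 to 22.8) and 149 for SDHD (49.4 to 59.1). High gain low intake replicate 2 stood at 67.4 for NDUFA5 (44.6 to 47.3) and 153 for UQCRC2 (114 to 116). High gain low intake replicate 1, the 1 library of its group with better covered first exons, stood at 8.51 for ATP5B (0.11 to 0.26), 11.8 for NDUFB7 (0.040 to 0.29) and 4.11 for NDUFV3 (0 to 0.20). In low gain high intake, replicate 3 stood at 64.7 for ATP5A1 (75.5 to 77.3), 98.3 for UQCRC2 (63.5 to 66.4) and 33.6 for UQCRQ (22.2 to 23.0), and replicate 1 at 1.00 for COX6A2 (0 in the others).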

How the results depend on the processing

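No paired analysis was possible because steers of different groups share no number in the labels. For intake, the interaction, and high gain low intake minus low gain high intake, no member was called under any alternative. For gain the count was 0 except for 3 members without the 5 libraries, 20 with the first-exon index as a term, and 0 to 1 with each library left out, the 1 without low gain low intake replicate 3. The median of members by gain (-0.21) was 0.45 with the index and -0.55 to -0.03 with 1 library left out; that of high gain low intake minus low gain high intake (-0.48) was 0.26 in best regions without a first exon (66 members), 0.57 with the index and -0.64 to 0.00 with 1 library left out. The leave-one-out range was -0.03 to 0.32 for intake and -0.22 to 0.35 for the interaction. Of 375 alternatives for 32 named results, 360 kept direction and call. With the index, the gain differences of UQCRC2 (-0.0038), ATP5E (-0.0615), NDUFA12 (-0.0059) and ATP5B (0.45) and the high gain low intake minus low gain high intake difference of NDUFV3 (0.44) changed sign. NDUFAB1 changed sign in regions without a first exon (0.19 for gain, 0.51 for high gain low intake minus low gain high intake) and in the mean over all its regions for the second comparison (0.0206). The interaction of COX7A2 was 0.0109 without the 5 libraries and -0.84 to 0.21 with 1 library left out, and that of COX4NB -0.36 to 0.0153; both highest values are those without low gain low intake replicate 3. The cause was not tested. Centring on the median gene put the median of all genes at 0.15 by gain, -0.14 by intake and 0.33 in high gain low intake minus low gain high intake, and that of the members at -0.02, 0.11 and -0.15. Coverage values carry no read counts. A first exon was part of the region in 32 of the 87 levels, and low coverage in the 5 libraries was not confined to these. Of the 53 tested members read without a first exon, 17 had a log2 difference, 5 libraries minus 11, below -1.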
